A study of Mus musculus with 9 samples.

Results

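The genes described here are 10 regulators and structural genes of fat cell formation and fat storage, chosen by name in 3 roles. The transcription factor genes are Pparg, Cebpa, Cebpb and Cebpd. The genes of fatty acid uptake and of the fat cell hormone adiponectin are Lpl, Fabp4 and Adipoq. The lipid droplet genes are Plin2, Plin4 and Pnpla2. Of the 10, 9 were found among the 16428 genes of the table, and all 9 passed the filter on low values. Adipoq has no row among these genes and was not analysed here.

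The cells were mouse embryonic fibroblasts, connective tissue cells cultured from embryos. All carried floxed alleles of Carm1 and a tamoxifen-inducible Cre recombinase (genotype CARM1f/f ER-Cre), the control group included, so WT names cells whose floxed gene was left intact. WT cells (n = 3 libraries) had no treatment. KO cells (n = 3) received 2 uM 4-OHT for 6 days, which switches on the recombinase, and CARM1i cells (n = 3) received 1 uM of the CARM1 inhibitor TP-064 for 6 days. No group received 4-OHT without deletion of the gene and none is labelled as vehicle, so drug and deletion cannot be told apart in KO, nor solvent and inhibitor in CARM1i. The labels do not say whether replicates were separate cultures, so the p-values describe variation among the libraries alone, which could be technical.

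Fat cell formation runs as a cascade. C/EBP beta and C/EBP delta, encoded by Cebpb and Cebpd, act early and switch on Pparg and Cebpa, whose products then maintain each other and switch on genes of lipid uptake and storage. PPARG binds DNA as a partner of the retinoid X receptor, at repeats of the letters AGGTCA, and CARM1, an arginine methyltransferase, has been reported as a coactivator of PPARG. Fat is stored in lipid droplets, whose surface carries perilipins such as PLIN2 and PLIN4 and from which the lipase ATGL, encoded by Pnpla2, releases fatty acids. Embryonic fibroblasts can be driven along this path by hormone mixtures, and the labels name no such mixture.

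Libraries held 28657018 to 35842771 recovered reads. Carm1 measured 1079 to 1143 normalized read counts in the WT libraries, 711 to 794 in KO and 986 to 1112 in CARM1i. Reads were summed over the whole gene, so its level does not show how much of the floxed part was lost. CARM1i replicate 3 lay apart from replicates 1 and 2 of its group on the third principal component, at 19.5 against -10.97 and -11.71. Fibroblast markers were abundant: the sum of 10 of them ran from 345844 to 383441, although Lum stayed at or under 11.8. Of the 9 tested, 6 fell and 2 rose in KO, and 3 fell and 2 rose in CARM1i. Over all tested genes, 20.5% fell and 21.4% rose in KO, and 8.59% fell and 10.5% rose in CARM1i. Of 10 markers of mature fat cells only Lipe and Slc2a4 have a row, and their sum ran from 164 to 197 in WT, 228 to 236 in KO and 193 to 214 in CARM1i. The higher sum in KO came from Lipe alone. Slc2a4 ran from 16.4 to 20.3 in WT, 14.1 to 20.5 in KO and 15.2 to 21 in CARM1i.

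Plin4 and Plin2 rose in KO and, to a smaller extent, in CARM1i. Pnpla2 rose and Lpl fell in KO. Pparg was higher in KO by a call that rested on single libraries. In KO against WT, 4 of the 9 measured genes rose and 1 fell, beside 41.9% of all 14560 tested genes called (21.4% higher and 20.5% lower). Their median log2 fold change was 0.31, beside -0.0043 for all tested genes. In CARM1i against WT, 2 of 9 rose and none fell, beside 19.1% of all tested genes called (10.5% higher and 8.59% lower), with a median of 0.01. At an unadjusted p under 0.05, Lpl and Cebpb were lower in CARM1i too, and edgeR and DESeq2 on the recovered reads also called none lower. With 1 library left out, limma called 1 gene lower in CARM1i, Cebpb without CARM1i replicate 1 and Lpl without CARM1i replicate 2. In a bulk sample, a change in the number of cells that express a gene cannot be told from a change in the RNA per cell.

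**Figure D1:**
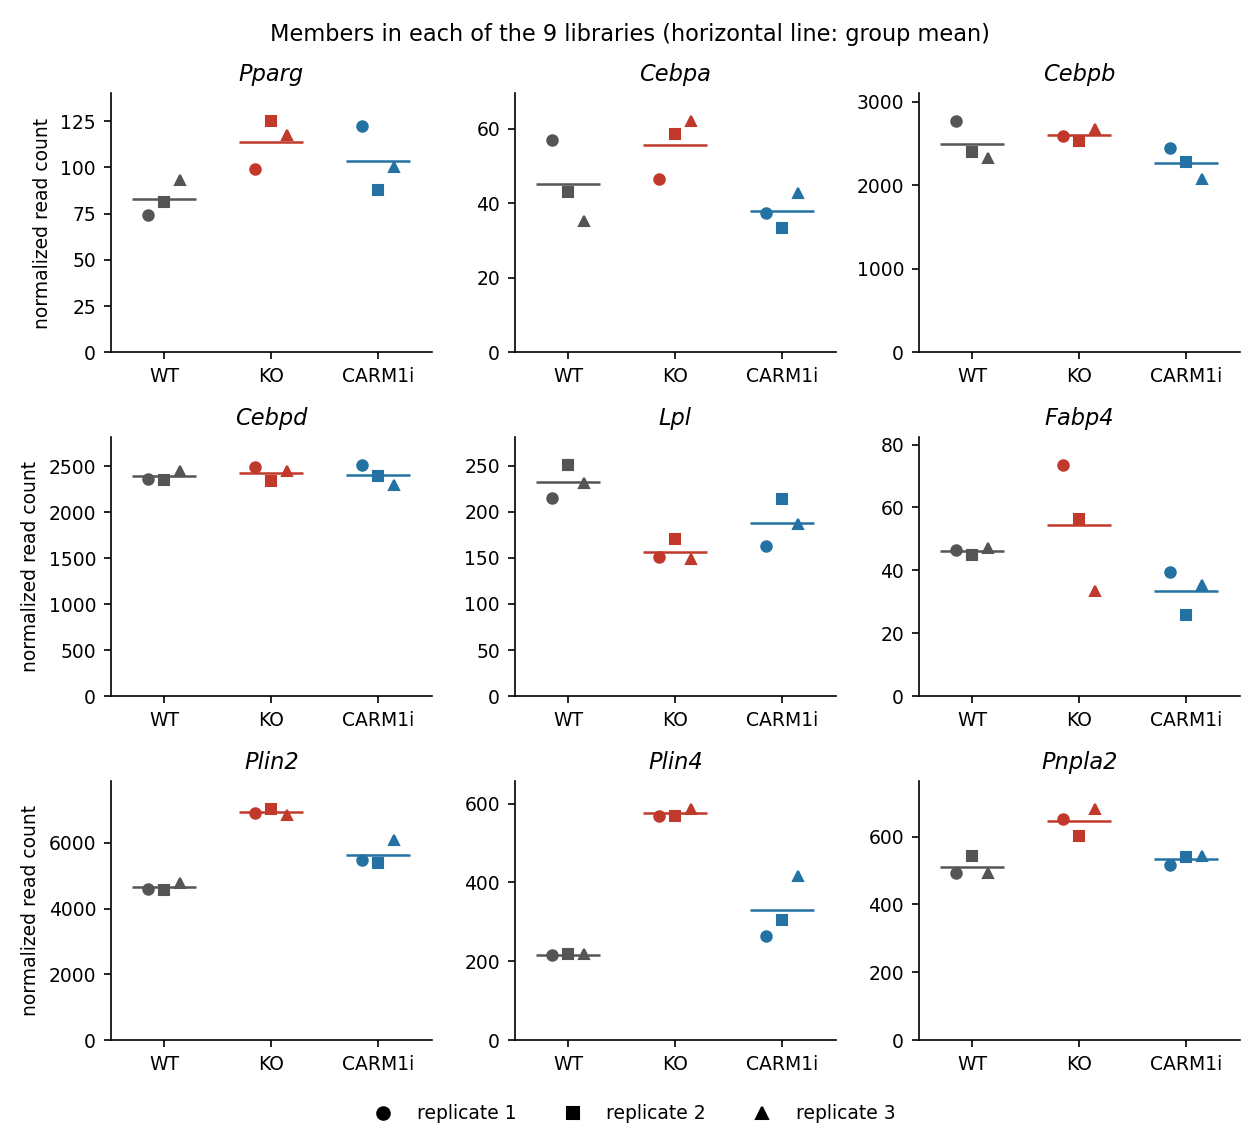
Normalized read count (vertical axes, each starting at 0) of the 9 measured genes in the 9 libraries, with symbols for replicates 1 to 3 and a horizontal line at each group mean. The 3 KO libraries of Plin2 and of Plin4 lie above every WT and CARM1i library, and those of Lpl lie below every WT library.

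Per kilobase of annotated exon, Cebpb stood highest in WT, at 1661 ± 156 normalized read counts per kb (mean ± SD, n = 3 here and below), followed by Plin2 at 1324 ± 34.9, Cebpd at 637 ± 14.8 and Pnpla2 at 169 ± 9.44. Plin4 at 37.5 ± 0.248, Pparg at 28.0 ± 3.24, Lpl at 22.2 ± 1.68, Cebpa at 17.1 ± 4.14 and Fabp4 at 10.3 ± 0.234 made up the low end. Lpl and Cebpa overlapped in their WT libraries, and the other neighbours in this order did not. In KO the order changed at 2 places: Plin2, at 1971 ± 27.8 per kb, stood above Cebpb at 1727 ± 46.0, and Cebpa, at 21.1 ± 3.09, above Lpl at 15.0 ± 1.13. Exon length was the union of all annotated transcripts, which is longer than the main transcript where rare isoforms are annotated, so the order between close neighbours is approximate.

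**Figure D2:**
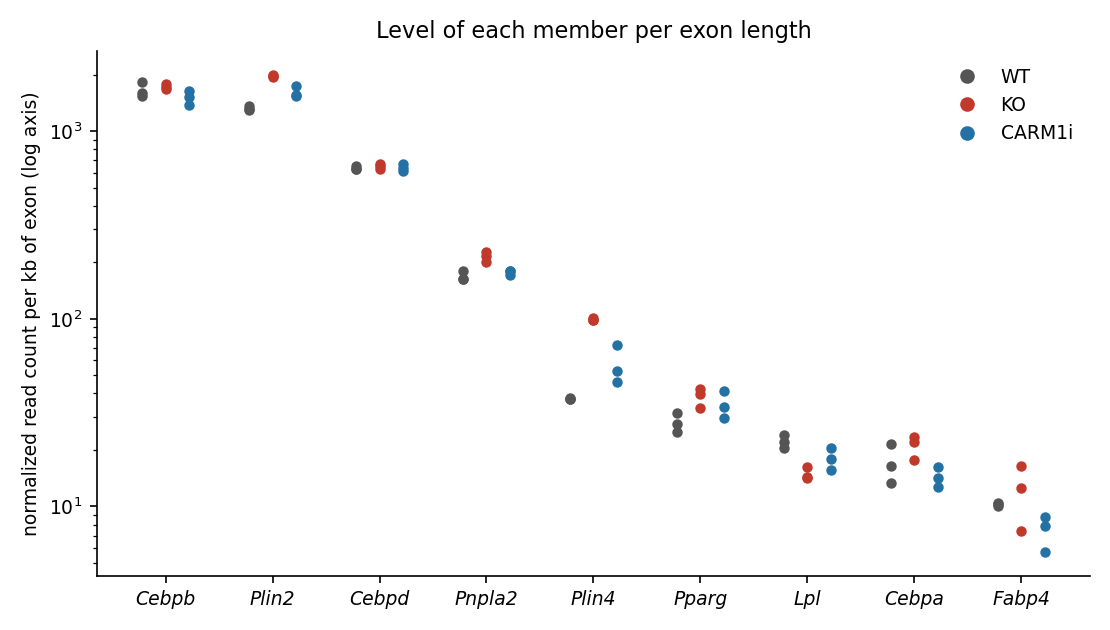
Level of each measured gene per kb of exon (vertical log axis) in every library, ordered by the WT mean. Cebpb, Plin2 and Cebpd lie well above the remaining genes in all 3 groups, and Plin4 in KO (99.5 ± 1.77 per kb) lies above Plin4 in WT (37.5 ± 0.248 per kb).

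Plin4 encodes perilipin 4, a coat protein of lipid droplets with a long run of repeats (ENSMUSG00000002831.13; mm10, chromosome 17, 56100591 to 56109803, minus strand). Its normalized read count was 215, 217 and 218 in WT replicates 1 to 3, 568, 569.6 and 587 in KO, and 265, 305 and 417 in CARM1i. The WT and KO libraries were each tightly grouped and the 3 groups did not overlap, with CARM1i replicate 3 the highest of its group. The KO mean of 575 ± 10.2 was 2.64-fold above the WT mean of 217 ± 1.43 on the fitted scale (log2 fold change 1.40 ± 0.12 SE, limma adjusted p = 2.544e-08). The CARM1i mean of 329 ± 78.6 was 1.49-fold above WT (0.57 ± 0.12, limma adjusted p = 0.002047). CARM1i stood below KO by a log2 difference of -0.83 ± 0.12 (limma adjusted p = 4.747e-05). Without CARM1i replicate 3, the CARM1i change from WT was 0.39 (limma adjusted p = 0.004267) and that from KO was -1.01. Exons of Hdgfl2, on the opposite strand, overlap those of Plin4, and the strand setting of the counting is not given in the sources used here. Hdgfl2 measured 3334 ± 95.1 in WT, 3090.1 ± 65.8 in KO and 3248 ± 52.1 in CARM1i, lower in KO by -0.11 ± 0.04 (limma adjusted p = 0.01778), a call that ended without WT replicate 1 or 2 or KO replicate 3.

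Plin2 encodes perilipin 2, a droplet coat protein of most cell types, which is degraded when no lipid is bound (ENSMUSG00000028494.12; chromosome 4, 86648386 to 86670060, minus strand). It measured 4599.5, 4558 and 4788 in WT, 6891, 7031 and 6843 in KO, and 5472, 5375 and 6079.6 in CARM1i. The 3 groups again did not overlap, and CARM1i lay between the other 2 groups with replicate 3 highest. KO was 1.49-fold above WT (log2 fold change 0.57 ± 0.04, limma adjusted p = 2.635e-09) and CARM1i was 1.21-fold above WT (0.28 ± 0.04, limma adjusted p = 8.969e-05). The difference between CARM1i and KO was -0.30 ± 0.04 (limma adjusted p = 3.201e-05). Without CARM1i replicate 3 the CARM1i change was 0.22 (limma adjusted p = 5.147e-05).

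Pnpla2 encodes adipose triglyceride lipase, which takes the first fatty acid off stored triglyceride (ENSMUSG00000025509.15; chromosome 7, 141455198 to 141460743, plus strand). Its libraries read 492, 542 and 494 in WT, 653, 603 and 682 in KO, and 516, 541 and 544 in CARM1i. All KO libraries lay above all others, and the CARM1i libraries lay inside or just above the WT range. KO was 1.27-fold above WT (0.34 ± 0.07, limma adjusted p = 0.0004949). CARM1i differed from WT by 0.07 ± 0.07, with a 95% interval of -0.07 to 0.21, and from KO by -0.27 ± 0.07 (limma adjusted p = 0.006465).

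Promoter windows were read for these 3 genes because their rise in KO was called in every fit that left out a library. Each window runs from 250 bases before to 50 bases after the annotated start in RefSeq on GRCm38.p6, which is the mm10 assembly, and is printed 5′ to 3′ on the gene's own strand. Capitals mark matches to the nuclear receptor half-site AGGTCA or the E-box CACGTG, on either strand. Plin2 is at chr4:86670010-86670309, Plin4 at chr17:56109733-56110032, both on the minus strand, and Pnpla2 at chr7:141454938-141455237 on the plus strand.
Plin2: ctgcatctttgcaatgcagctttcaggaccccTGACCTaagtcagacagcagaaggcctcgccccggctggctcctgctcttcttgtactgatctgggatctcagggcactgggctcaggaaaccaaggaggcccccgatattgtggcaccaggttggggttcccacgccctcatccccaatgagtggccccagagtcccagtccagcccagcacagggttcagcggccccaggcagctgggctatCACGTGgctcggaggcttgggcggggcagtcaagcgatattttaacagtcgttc
Plin4: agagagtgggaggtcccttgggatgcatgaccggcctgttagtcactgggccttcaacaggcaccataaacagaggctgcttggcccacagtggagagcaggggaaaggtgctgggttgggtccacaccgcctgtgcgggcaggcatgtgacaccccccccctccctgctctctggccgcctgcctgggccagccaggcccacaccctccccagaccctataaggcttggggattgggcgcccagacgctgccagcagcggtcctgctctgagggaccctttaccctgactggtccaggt
Pnpla2: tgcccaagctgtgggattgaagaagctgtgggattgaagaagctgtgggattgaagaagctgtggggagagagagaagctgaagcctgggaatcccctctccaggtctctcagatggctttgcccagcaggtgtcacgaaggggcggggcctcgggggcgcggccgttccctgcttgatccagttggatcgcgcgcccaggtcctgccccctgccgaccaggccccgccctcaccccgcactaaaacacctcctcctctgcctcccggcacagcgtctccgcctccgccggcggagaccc

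The Plin2 window held 1 half-site, at window bases 33 to 38 on the opposite strand, and 1 E-box at bases 247 to 252, across the annotated start. The windows of Plin4 and Pnpla2 held neither, which says only that these letters are not in these 300 bases. Over all 32851 RefSeq windows of this length, the half-site was found in 16.3% and the E-box in 7.15%. RefSeq gave 9 windows for 7 of the 10 genes, 3 of them for Pparg and 1 for Adipoq. Beside that of Plin2, 2 of the Pparg windows held the half-site. A full PPAR response element, a direct repeat of AGGTCA with 1 base between, was in 0.0396% of all windows and in none of the 9, and the C/EBP letters TTGCNNCAA were in 2.08% and in none of the 9. A match of letters is a description and not a bound site.

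Pparg encodes the nuclear receptor at the centre of fat cell formation (ENSMUSG00000000440.12; chromosome 6, 115360951 to 115490399, plus strand). It was expressed at a low level, with 83 to 124 recovered reads per library. Its normalized read count was 74.1, 81.2 and 93 in WT, 99.4, 125 and 117 in KO, and 122, 87.7 and 100.5 in CARM1i. The KO libraries all lay above the WT libraries, while CARM1i overlapped both groups. KO was 1.37-fold above WT (0.46 ± 0.16, limma adjusted p = 0.03044). The call ended without WT replicate 1 (0.38, limma adjusted p = 0.1131), WT replicate 2 (0.45, 0.07308), KO replicate 2 (0.39, 0.1148) or KO replicate 3 (0.43, 0.08604). CARM1i differed from WT by 0.31 ± 0.16, with a 95% interval of -0.03 to 0.65, and from KO by -0.14 ± 0.16, with an interval of -0.48 to 0.20. Pparg has several start sites, and a gene total does not separate the transcripts of its PPARG1 and PPARG2 proteins.

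Cebpa, the later C/EBP factor and partner of PPARG (ENSMUSG00000034957.10; chromosome 7, 35119293 to 35121928), was lower still, at 33 to 66 recovered reads per library. Its normalized read count ranged from 35.3 to 56.8 in WT, 46.5 to 62 in KO and 33.4 to 42.7 in CARM1i. No comparison passed the threshold. The 95% interval was -0.16 to 0.79 for KO against WT and -0.70 to 0.24 for CARM1i against WT, wide intervals at this depth. CARM1i lay below KO without overlap, by -0.54 ± 0.22 (limma adjusted p = 0.09279).

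Cebpb and Cebpd, the early factors, were abundant, and neither passed the threshold against WT in KO or CARM1i. Cebpb (ENSMUSG00000056501.3; chromosome 2, 167688915 to 167690418) measured 2766, 2401 and 2327 in WT, 2590.2, 2532 and 2669.9 in KO, and 2449, 2276 and 2076 in CARM1i. WT replicate 1 was the highest of the 9 libraries. Cebpb differed from WT by 0.06 ± 0.06 in KO (95% interval -0.07 to 0.19) and by -0.14 ± 0.06 in CARM1i (limma adjusted p = 0.1289), and it was lower in CARM1i than in KO by -0.20 ± 0.06 (limma adjusted p = 0.02387). That last call ended without the intensity trend and without KO replicate 1 or 3 or CARM1i replicate 2 or 3, with limma adjusted p values of 0.05175 to 0.1429. Cebpd (ENSMUSG00000071637.5; chromosome 16, 15887286 to 15891031) ran from 2293 to 2511 over all 9 libraries. Its 95% interval was -0.06 to 0.11 in KO and -0.08 to 0.09 in CARM1i. Opposite-strand exons of Tmem189 and Spidr overlap those of Cebpb and Cebpd. Tmem189 was lower in CARM1i than in KO by -0.17 ± 0.06 (limma adjusted p = 0.0441), the same direction as Cebpb. Spidr was higher in CARM1i than in KO by 0.19 ± 0.06 (limma adjusted p = 0.0258). Against WT in KO, Tmem189 stood at 0.15 ± 0.06 (limma adjusted p = 0.03783) and Spidr at -0.17 ± 0.06 (limma adjusted p = 0.02322). The part of these overlaps in the values of Cebpb and Cebpd was not tested.

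**Figure D3:**
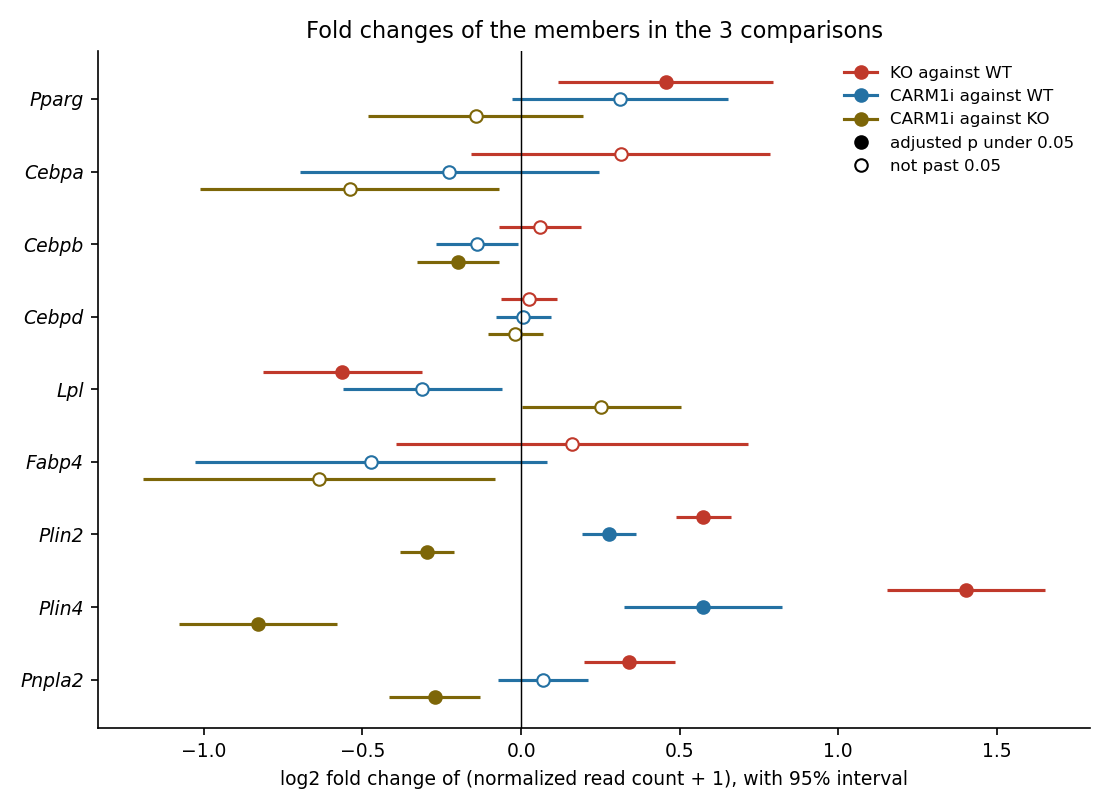
Log2 fold change of the 9 measured genes with its 95% interval (horizontal axis) in the 3 comparisons; filled points have an adjusted p under 0.05. Plin4 lies farthest to the right in KO (1.40), and Cebpd lies closest to 0 in all 3 comparisons.

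Lpl encodes lipoprotein lipase, which frees fatty acids from blood lipoproteins and is an early marker of the fat cell path (ENSMUSG00000015568.16; chromosome 8, 68880491 to 68907448, plus strand). It moved against the droplet genes. Its normalized read count was 215, 251 and 231 in WT, 151, 170.4 and 149 in KO, and 163, 213 and 187 in CARM1i. Every KO and every CARM1i library lay below every WT library. KO was lower than WT by a log2 difference of -0.56 ± 0.12 (limma adjusted p = 0.0008408). CARM1i was lower by -0.31 ± 0.12, which did not pass (limma adjusted p = 0.07828) and passed without CARM1i replicate 2 (-0.41, limma adjusted p = 0.03605). CARM1i and KO differed by 0.25 ± 0.12 (limma adjusted p = 0.1411).

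Fabp4 encodes the fatty acid carrier of fat cells and macrophages and is a PPARG target (ENSMUSG00000062515.3; chromosome 3, 10204088 to 10208576, minus strand). It had 27 to 68 recovered reads per library. It read 46.5, 45 and 47 in WT, 73.5, 56.5 and 33.4 in KO, and 39.5, 25.7 and 35.3 in CARM1i. The KO libraries spread on both sides of the WT libraries, and the CARM1i libraries lay below WT. No comparison passed: the 95% interval was -0.39 to 0.72 for KO against WT and -1.03 to 0.08 for CARM1i against WT. Without KO replicate 1 the KO difference changed sign, to -0.09. Without KO replicate 3, CARM1i was called lower than KO (-0.94, limma adjusted p = 0.01383).

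In CARM1i against KO, the test of the difference between the 2 perturbations, 4 of the 9 genes were lower in CARM1i and none higher, beside 23.6% of all tested genes called (11.5% lower and 12.1% higher). The 4 were Plin4, Plin2, Pnpla2 and Cebpb, the call of the last being the one that single libraries ended. The median was -0.27, beside -0.0021 for all tested genes. At an unadjusted p under 0.05, Lpl was higher in CARM1i and Cebpa and Fabp4 were lower, and edgeR and DESeq2 also called none higher. KO and CARM1i share the WT libraries, so their changes from WT are set side by side here and not compared with each other beyond this test.

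Fabp4, Lpl, Plin2 and Pparg are also expressed by macrophages, and Fabp4 by endothelial cells. Of 10 macrophage markers, 5 have a row. Their summed level was 259 to 321 in WT, 304 to 341 in KO and 294 to 329 in CARM1i. Cd68 rose from 42.5 ± 12.4 to 86 ± 27.9 in KO (limma adjusted p = 0.007039), Cd14 went from 147 ± 17.7 to 109 ± 17.8 by a call that ended without WT replicate 2 or KO replicate 2 or 3, and the macrophage lysozyme gene Lyz2 stayed at or under 11.9 in every library. Adgre1, Itgam, Ptprc, Fcgr1 and Cd163 have no row and were not analysed here. The summed level of the 6 endothelial markers with a row was 397 to 452 in WT, 466 to 526 in KO and 439 to 464 in CARM1i, with Pecam1 and Vwf at or under 14.3 in every library. Egfl7 was higher in KO (0.35 ± 0.12, limma adjusted p = 0.02488) and in CARM1i (0.46 ± 0.12, limma adjusted p = 0.01204). Kdr (0.69 ± 0.29) and Cdh5 (0.57 ± 0.26) did not pass in KO. Tek ran from 223 to 252 in WT, 217 to 266 in KO and 178 to 220 in CARM1i. Of 4 epithelial markers only the keratin gene Krt18 has a row. It ran from 23.3 to 48 in WT, 91.9 to 126 in KO and 32.4 to 43.8 in CARM1i. Of 5 skeletal muscle markers only the actin gene Acta1 has a row. Its values were 142 to 159 in WT, 205 to 251 in KO and 91.5 to 174 in CARM1i. The part of such cells in the changes above was not tested.

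Among other genes of the lipid droplet, 7 of 10 tested genes rose in KO and none fell (median 0.21). The shares over all tested genes were 21.4% higher and 20.5% lower in KO, and 10.5% and 8.59% in CARM1i. All 17 listed genes were chosen by name, and 7 of them, including Plin1, Plin5 and Cidec, have no row and were not analysed here. Plin3, a perilipin that moves from the cytosol to new droplets, went from 3835 ± 157 to 6517 ± 121 in KO (0.77 ± 0.04, limma adjusted p = 1.664e-11) and to 5354 ± 194 in CARM1i (0.48 ± 0.04). It was lower in CARM1i than in KO by -0.28 ± 0.04. Pcyt1a, an enzyme in the synthesis of the phosphatidylcholine of the droplet surface, rose by 0.42 ± 0.04 in KO and 0.26 ± 0.04 in CARM1i, and Aup1 by 0.22 ± 0.03 and 0.13 ± 0.03. These were the 3 of 10 that rose in CARM1i, where none fell (median 0.09). Hilpda, an ATGL inhibitor that responds to low oxygen, did not pass, at -0.16 ± 0.11 in KO and -0.09 ± 0.11 in CARM1i. In CARM1i against KO, 5 of the 10 were lower and none higher, beside 11.5% lower and 12.1% higher of all tested genes. The 5 became 3 without KO replicate 1, CARM1i replicate 1 or CARM1i replicate 2, and 2 without KO replicate 2. At an unadjusted p under 0.05 none of the 10 was lower in KO or CARM1i than in WT, or higher in CARM1i than in KO, and edgeR and DESeq2 called none either.

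Lipolysis genes and regulators of ATGL rose in 7 of 12 cases in KO and fell in 2 (median 0.25). Over all tested genes, 21.4% rose and 20.5% fell in KO. Abhd5, the coactivator that switches ATGL on, went from 2201 ± 83.1 in WT to 3401 ± 90.2 in KO (0.63 ± 0.04, limma adjusted p = 2.583e-10) and 2993 ± 27.3 in CARM1i (0.44 ± 0.04). Pnpla7, a lysophospholipase of the same family as ATGL, rose by 0.78 ± 0.05 and 0.31 ± 0.05, and Lipa, the acid lipase of lysosomes, by 0.42 ± 0.03 and 0.15 ± 0.03. Lipe, hormone-sensitive lipase, which acts after ATGL, rose from 159 ± 17.1 to 215 ± 7.17 in KO (0.44 ± 0.11, limma adjusted p = 0.003994) and stood at 0.22 ± 0.11 in CARM1i, which did not pass. Prkar2b, a regulatory subunit of the kinase that activates lipolysis, fell by 0.48 ± 0.04 in KO and by 0.19 ± 0.04 in CARM1i. In CARM1i 5 of 12 rose and 2 fell (median 0.12), beside 10.5% higher and 8.59% lower of all tested genes. The 5 became 3 without WT replicate 2 or 3 or CARM1i replicate 2 or 3, and the 2 became 1 without WT replicate 1 or 2 or CARM1i replicate 1 or 2. In CARM1i against KO, 5 of 12 were lower and 2 higher, beside 11.5% lower and 12.1% higher of all tested genes. Abhd5, Pnpla7 and Lipa were lower in CARM1i than in KO, by -0.18 ± 0.04, -0.47 ± 0.05 and -0.27 ± 0.03. The 2 that were higher were Pde3b, by 0.61 ± 0.07, and Prkar2b, by 0.29 ± 0.04.

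Of 14 tested genes of triglyceride synthesis, 5 rose and 1 fell in KO (median 0.15), and 4 rose and none fell in CARM1i (median 0.06; 2 rose without WT replicate 2 or CARM1i replicate 1). None was lower in CARM1i at an unadjusted p under 0.05 either, nor by edgeR or DESeq2. Beside these counts, 21.4% of all tested genes rose and 20.5% fell in KO, and 10.5% rose and 8.59% fell in CARM1i. Lpin1, a phosphatidate phosphatase, rose from 825 ± 36.2 to 1252 ± 11.2 in KO (0.60 ± 0.06, limma adjusted p = 1.046e-07) and to 1107 ± 85.6 in CARM1i (0.42 ± 0.06). Lpin2 rose by 0.39 ± 0.04 and 0.27 ± 0.04. Gpam, which starts glycerolipid synthesis in mitochondria, fell by 0.25 ± 0.06 in KO. The enzymes of the last step, Dgat1 (0.07 ± 0.06) and Dgat2 (0.15 ± 0.07), did not pass in KO, and Dgat2 passed with quantile normalization (0.21, limma adjusted p = 0.02454) and without KO replicate 2 (0.21, limma adjusted p = 0.03925).

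Genes of fatty acid uptake and of LPL handling rose in 8 of 20 cases in KO and fell in 2 (median 0.11). In CARM1i 7 rose and 3 fell (median 0.10; 1 fell without CARM1i replicate 1 or 2). The shares over all tested genes were 21.4% higher and 20.5% lower in KO, and 10.5% and 8.59% in CARM1i. Among the fatty acid carriers related to Fabp4, Fabp3 and Fabp5 went opposite ways. Fabp3 measured 311 ± 3.05 in WT, 579.7 ± 15.2 in KO (0.90 ± 0.07, limma adjusted p = 1.617e-08) and 413 ± 30.2 in CARM1i (0.41 ± 0.07). Fabp5 measured 1555 ± 63.4, 974 ± 111 (-0.68 ± 0.07, limma adjusted p = 2.902e-07) and 1253 ± 77.4 (-0.31 ± 0.07), the CARM1i call being lost without the intensity trend (limma adjusted p = 0.06145). Acsl3, an acyl-CoA synthetase found on droplets, rose in CARM1i (0.39 ± 0.05). Angptl4, a PPAR target that inactivates LPL, was lower in CARM1i by -0.15 ± 0.05 (limma adjusted p = 0.02898), a call that ended without WT replicate 1 or 2 or CARM1i replicate 1 or 2, and Vldlr stood at 0.11 ± 0.06 in KO and in CARM1i, without passing. With quantile normalization Vldlr passed in KO (0.16, limma adjusted p = 0.03974). Cd36 has no row and was not analysed here.

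Other factors that promote the fat cell path rose in 9 of 23 cases in KO and fell in 4 (median 0.10; 2 fell without WT replicate 2). Over all tested genes, 21.4% rose and 20.5% fell in KO, and 10.5% rose and 8.59% fell in CARM1i. Egr2, an early factor upstream of Cebpb, went from 181 ± 22.9 to 315 ± 30.3 in KO (0.80 ± 0.13, limma adjusted p = 5.826e-05) and stood lower in CARM1i than in KO by -0.64 ± 0.13. Klf15 rose by 0.56 ± 0.10 in KO and 0.60 ± 0.10 in CARM1i. Rxra, a gene of the retinoid X receptor, the partner of PPARG, rose by 0.20 ± 0.04 in KO. It stood at 0.07 ± 0.04 in CARM1i, which did not pass. Rxrb, another retinoid X receptor gene, stood at -0.08 ± 0.04 in KO and 0.07 ± 0.04 in CARM1i, without passing. Ebf1 fell by 0.27 ± 0.08 in KO (limma adjusted p = 0.008671), a call that ended without WT replicate 2 (limma adjusted p = 0.053), and Srebf1 (0.07 ± 0.04) did not pass. In CARM1i Klf15 and Id2 rose and Ebf1 fell, and the calls of Id2 and Ebf1 ended in 11 and 9 of the 20 alternative fits (median of the list 0.04).

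Genes that restrain the fat cell path went both ways. Of 19, 5 rose and 6 fell in KO (median -0.07; 3 rose without WT replicate 2 or 3 or KO replicate 2 or 3). Beside these counts, 21.4% of all tested genes rose and 20.5% fell in KO. Zfp521, a repressor of the path, went from 3338 ± 191 to 2209 ± 83.4 (-0.59 ± 0.07, limma adjusted p = 3.391e-06), Klf2 fell by 0.51 ± 0.08 and Twist1 by 0.28 ± 0.05. Ddit3, the stress factor CHOP, which can block C/EBP factors, rose by 0.57 ± 0.04 in KO and 0.26 ± 0.04 in CARM1i. Dlk1, the preadipocyte factor Pref-1, went from 5667 ± 111 to 4989.7 ± 359 in KO (-0.19 ± 0.05), a call that ended without KO replicate 1 and without the intensity trend. In CARM1i 2 of 19 rose and 2 fell (median -0.08), beside 10.5% higher and 8.59% lower of all tested genes. The number that rose was 1 without WT replicate 2 or 3 or CARM1i replicate 1, and the number that fell was 1 without WT replicate 1 or 3, any 1 KO library or CARM1i replicate 3. Zfp521 and Klf2 were higher in CARM1i than in KO by 0.44 ± 0.07 and 0.42 ± 0.08, and Ddit3 was lower by -0.31 ± 0.04.

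**Figure D4:**
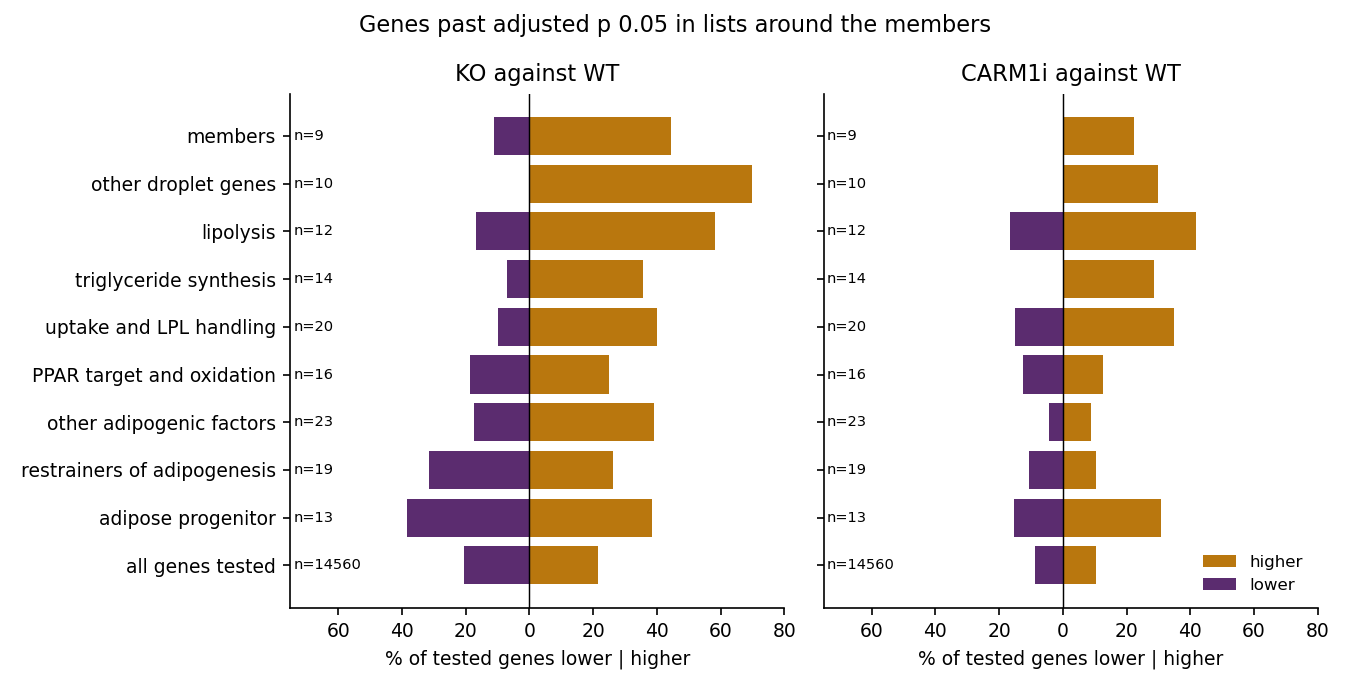
Share of tested genes with an adjusted p under 0.05 that were higher (right) or lower (left) than WT, for the members, for 8 lists of related genes and for all 14560 genes tested. In KO the other droplet genes reached 7 of 10 higher with none lower, beside 21.4% higher and 20.5% lower of all genes.

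The genes whose pattern over the 9 libraries was most like that of a member were found by the root mean square difference of centred log2 values, among 10447 tested genes with a mean of at least 100. For Plin4, whose own root mean square deviation was 0.60, they were Cystm1 (difference 0.09), Ifit2 (0.10) and Arhgap6 (0.11). Cystm1 measured 67.2 ± 6.54 in WT, 194 ± 6.83 in KO and 109 ± 25.5 in CARM1i. For Lpl, at 0.26, they were Zfp692 (0.07), Cenpj (0.08) and Dnajc9 (0.09). For Pparg, at 0.25, they were Whamm (0.10), Nr6a1 (0.11) and Casp9 (0.11), differences that are large beside its own deviation.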

How the data were processed

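The authors deposited read counts per gene divided by library size factors, a normalized signal, for 16428 genes in 9 libraries of polyadenylated RNA made with a stranded kit, per the labels. Alignment and counting tools are listed for build mm10 in the submitters' processing notes (HTSeq 0.6.0, TopHat2 2.0.10 and DESeq 1.18.0). Neither the annotation release nor the use of strand in counting is stated in the sources used here. In every library 100% of values were whole multiples of 1 read (tolerance 1e-06), and size factors were 0.925 to 1.16. Of the gene IDs, 16413 were found in GENCODE M21 when versions were ignored and 15 were not.

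Differences were tested on log2(value + 1) by limma 3.58.1 with its intensity trend (R 4.3.3), a scale that understates the fold changes of low genes. The fit held all 9 libraries and the 14560 genes with a mean of at least 10, with Benjamini-Hochberg adjustment over all of them and a threshold of 0.05. Values are mean ± SD (n = 3), and log2 fold changes are estimate ± SE. The fit was tested on simulated data. Replicates differed by more than sampling noise (chi-square of their reads 2.474 to 8.462 per gene). Members and lists were chosen with earlier results of these data known.

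Genes named beside the members are fixed names from each list, up to 3 per list and comparison by smallest adjusted p, and a few behind small counts, picked once their values were known. Alternatives comprised other filters, pseudocounts and scalings, no trend, only the compared groups, the replicate block, each library left out, and fits of the recovered reads with edgeR 4.0.16 and with DESeq2 1.42.0. The counts of the gene lists under these alternatives were added after seeing the data.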

Additional observations from a re-analysis of the deposited data

How the results depend on the processing

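Over 534 recomputed values of the 9 genes, 515 kept direction and side of the threshold, 9 lost the call, 3 gained it and 7 changed sign. None of the 7 passed the threshold. Fabp4 in KO ran from -0.086 without KO replicate 1 to 0.47 without KO replicate 3. Cebpd in CARM1i against WT was -0.012 with quantile normalization and -0.0090 after scaling to a common total, and ran from -0.026 without CARM1i replicate 1 to 0.039 without CARM1i replicate 3. Cebpd in CARM1i against KO ran from -0.051 to 0.014 with the same libraries left out. The calls of Plin4, Plin2, Pnpla2 and Lpl in KO against WT, and those of Plin4 and Plin2 in CARM1i against WT, held in all 20 alternatives. On the recovered reads edgeR called 6150, 2821 and 3471 genes in KO against WT, CARM1i against WT and CARM1i against KO, beside 6100, 2784 and 3436 by limma. Without the intensity trend 1797 genes were called in CARM1i against WT. With each library left out in turn the calls ran from 5243 to 6464, 1936 to 2677 and 2600 to 3682. The number of the 9 genes called lower in CARM1i against WT ran from 0 to 1. Without the trend, the counts in CARM1i against WT fell from 5 to 3 higher and 2 to 1 lower for lipolysis, from 4 to 2 higher for triglyceride synthesis, from 3 to 1 lower for uptake, and from 4 to 2 higher and 2 to 0 lower for progenitor genes. The cause was not tested. Same-numbered libraries did not deviate together (correlations of -0.08698 to 0.02684), so replicate numbers were treated as names. With the replicate number as a block 5865, 2553 and 3156 genes were called, and no call of the 9 genes changed. Low depth limits Pparg, Cebpa and Fabp4, at 27 to 124 reads per library.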

Other observations

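Markers of the progenitors from which fat cells arise went both ways. Of 13 tested, 5 rose and 5 fell in KO (median 0.05), and 4 rose and 2 fell in CARM1i (median 0.03; 1 fell without WT replicate 1 or CARM1i replicate 3). The shares over all tested genes were 21.4% higher and 20.5% lower in KO, and 10.5% and 8.59% in CARM1i. Ly6a, the surface antigen Sca-1, went from 2310 ± 123 in WT to 4275 ± 146 in KO (0.89 ± 0.04, limma adjusted p = 1.664e-11) and 3840 ± 152 in CARM1i (0.73 ± 0.04). Cd34 was lower in both, at -0.35 ± 0.08 and -0.36 ± 0.08, with a limma adjusted p of 0.08567 in CARM1i without the intensity trend. Cd24a fell by 0.84 ± 0.06 in KO and by 0.21 ± 0.06 in CARM1i. Without the intensity trend neither Cd34 nor Cd24a was called in CARM1i. Pdgfra, a receptor gene of such progenitors and of fibroblasts in general, was lower in KO by -0.68 ± 0.04, and it was higher in CARM1i than in KO by 0.58 ± 0.04.

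Genes of fatty acid oxidation, many of them targets of PPAR receptors, also went both ways. Of 16 tested, 4 rose and 3 fell in KO (median 0.03; 2 rose without WT replicate 1, KO replicate 2 or KO replicate 3, without the intensity trend and after scaling to a common total). Over all tested genes, 21.4% rose and 20.5% fell in KO. Acadvl, a mitochondrial acyl-CoA dehydrogenase, fell by 0.23 ± 0.04 in KO and by 0.18 ± 0.04 in CARM1i. Cpt1a, which admits fatty acids to mitochondria, rose by 0.16 ± 0.03 in KO. Of 19 genes of mature fat cells 6 have a row and 5 were tested. Tmem120a and Lipe rose and Agt fell in KO. Agt was low, at 36.5 ± 5.54 in WT and 17.6 ± 2.52 in KO, and its call was lost without WT replicate 2. In CARM1i 1 of the 5 rose, Tmem120a, beside 10.5% higher of all tested genes.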
